A study of Bos taurus with 10 samples.

Results

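The subject is a set of 41 genes of DNA replication, taken as the rows of the deposited gene table whose symbol equals a listed name, and all 41 were found once among 21130 rows. The table held FPKM values (fragments scaled to transcript length and library size) of 10 RNA sequencing libraries. Of these, 7 were labelled as muscle of MSTN+/- cattle, heterozygous at the gene of the growth inhibitor myostatin, and 3 as muscle of wild-type cattle, all at an age of 24 months. The design sets the genotypes against each other, and the labels give no promoter, clone, pooling or batch. Nothing in them says that the libraries came from separate animals, so a p-value speaks for the spread among these 10 columns, part of which may be technical.

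A eukaryotic cell copies its DNA once per cycle. The origin recognition complex, CDC6 and CDT1 load the MCM helicase at origins, CDC45 and the GINS complex turn it into an active helicase, and the polymerases then copy both strands behind it, held by the sliding clamp PCNA. Most of these genes are transcribed at the G1 to S transition under E2F control, and their mRNA is widely used as a readout of proliferating cells, and fibres of mature skeletal muscle do not divide.

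The table does not hold what its species and tissue labels say. Of the rows, 19415 were described as Mus musculus genes, among them 40 of the 41 replication genes, and 0 of the 41 gene identifiers and 0 of their 58 transcript accessions occurred in a RefSeq table of cattle. Markers of skeletal muscle fibres summed to 12.8 to 28.1 FPKM over 10 genes in the MSTN+/- libraries and to 7.58 to 25.8 FPKM over the wild-type libraries, with Ckm, the muscle creatine kinase, at 1.07 FPKM or less in every library. Mstn itself was listed at 0 in 7 libraries and reached 0.18 FPKM, so it cannot check the labels. The wild-type libraries were unlike one another. Summed over 8 pluripotency markers, wild-type replicates 1, 2 and 3 were at 2.20, 2527 and 2879 FPKM and the MSTN+/- libraries at 903 to 1529 FPKM. These markers did not run together. Nanog, Esrrb, Zfp42, Dppa5a, Tdgf1 and Utf1 were 7.50-fold to 18.0-fold above the MSTN+/- mean in wild-type replicates 2 and 3. Pou5f1, at 346 and 533 FPKM there, was below its MSTN+/- range of 633 to 848 FPKM. Sox2 had an MSTN+/- range of 212 to 357 FPKM. It was inside that range in wild-type replicate 2, at 224 FPKM, and below it in wild-type replicate 3, at 202 FPKM. Summed over 9 fibroblast markers, wild-type replicates 1, 2 and 3 were at 6922, 582 and 504 FPKM against 3113 to 6036 FPKM in the MSTN+/- libraries. Satellite cell, erythroid and adipocyte markers stayed at 1.01 FPKM or less in sum in every library. Differences below are therefore between columns carrying these labels, and calls are also given with each wild-type library left out.

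Replication genes were expressed in every library. All 41 were at 1 FPKM or more in all 10, with means over the MSTN+/- libraries from 2.98 FPKM for Gins3, a GINS subunit, to 113 FPKM for Pcna. Summed levels were lowest in MSTN+/- replicate 7 and highest in wild-type replicates 2 and 3. The sum of the 41 genes was 1263 per 1000000 FPKM in MSTN+/- replicate 7, 2153 to 2585 in MSTN+/- replicates 1 to 6, 2379 in wild-type replicate 1, and 6074 and 6617 in wild-type replicates 2 and 3. Wild-type replicate 3 held the highest value for 31 genes and wild-type replicate 2 for the other 10, while over all genes tested these libraries held the highest value for 21.4% and 15.9%. MSTN+/- replicate 7 held the lowest value for 39 of 41 genes, against 15.2% of all genes tested. In bulk RNA, fewer dividing cells and less of these mRNAs per cell cannot be told apart.

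**Figure D1:**
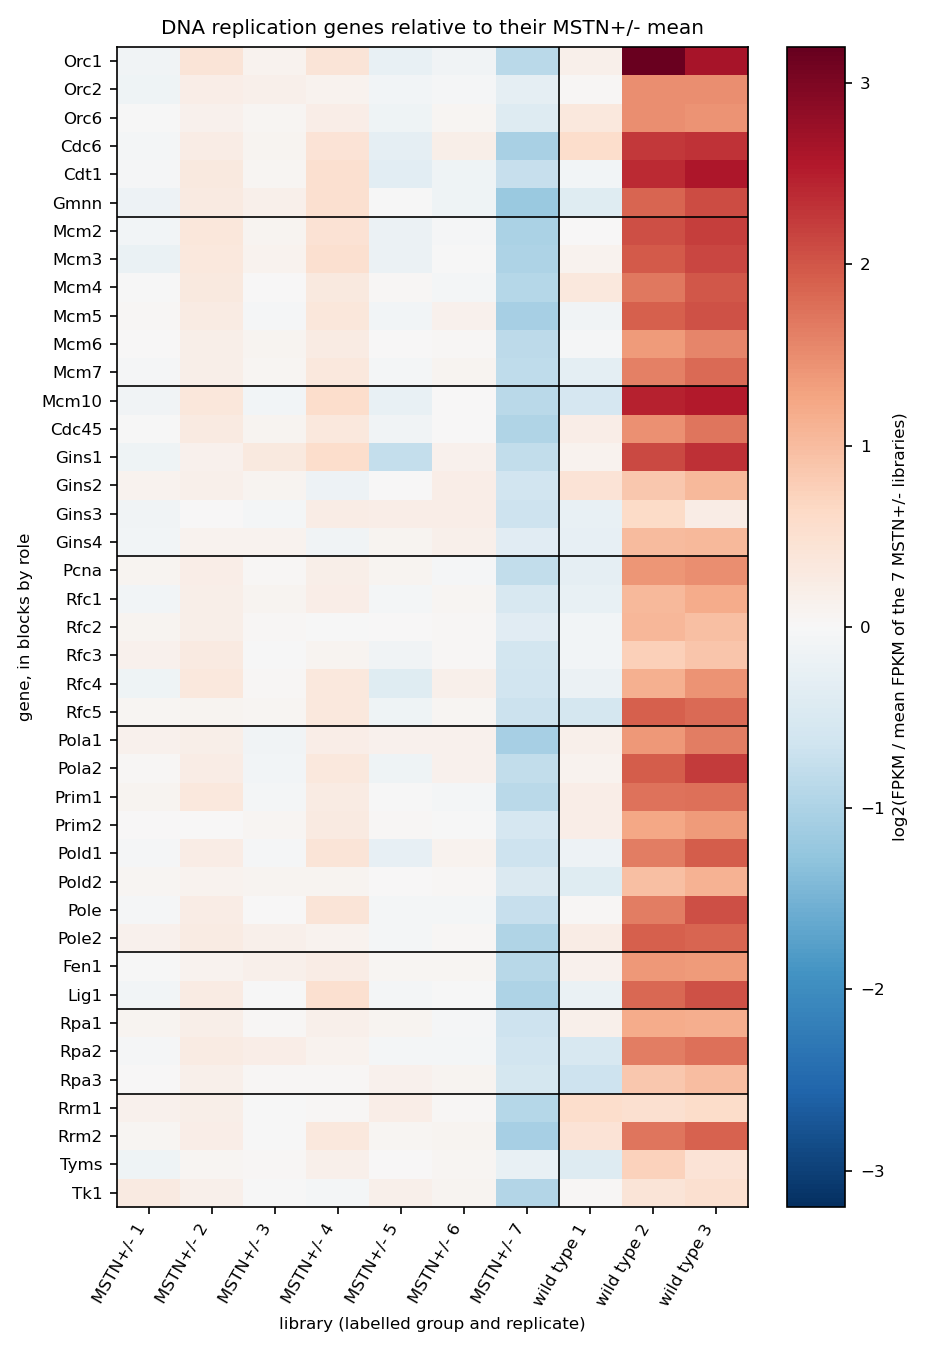
Each cell is the log2 ratio of a gene's FPKM in 1 library (columns) to its mean FPKM over the 7 MSTN+/- libraries, with the 41 genes (rows) in blocks by role. Wild-type replicates 2 and 3 are on the red side for every gene and MSTN+/- replicate 7 on the blue side, for some genes only faintly. Wild-type replicate 1 is pale for most genes, with genes on both sides.

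The comparison of the labelled groups asks whether replication genes differ between the genotypes as labelled. Of the 41 genes, 26 were lower in the MSTN+/- libraries and 0 were higher in limma on log2(FPKM + 1), at a Benjamini-Hochberg adjusted p under 0.05 over 14047 genes. Over all genes tested, 12.8% were called lower and 31.8% higher. At an unadjusted p under 0.05, 36 of the 41 were lower and 0 higher, where 17.3% and 36.3% of all genes tested were. The median log2 change of the 41 was -1.05, and that of all genes tested 0.17. With other scalings the count of lower genes was 37 of 41 (median of ratios), 36 (quantiles) and 34 (TPM), beside backgrounds of 23%, 27.4% and 16.4%, and 0 were higher under each. The higher background was 23.2%, 20.5% and 28.9% under those scalings, and the median change of all genes tested was 0.00, -0.10 and 0.14.

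The difference rested on wild-type replicates 2 and 3. Without wild-type replicate 2, or without wild-type replicate 3, 3 of the 41 genes were called lower, Orc6, Cdc6 and Gins2 in each case, beside a background of 5.71% and 5.7%. At an unadjusted limma p under 0.05, 21 and 17 of the 41 were lower in these fits, beside 10.2% of all genes tested in each. The median log2 changes of the 41 were -0.79 and -0.74. Against wild-type replicate 1 alone, a limma fit in which the lone library is taken to be as variable as the others, 0 genes were lower and 2 were higher (background 10.8% and 33.7%). The unadjusted p gave 0 lower genes there too, beside 13.1% of all genes tested. Without wild-type replicate 1, 38 of the 41 were lower, beside 31.9% of all genes, and their median log2 change was -1.52. The other 3, Gins3, Rrm1 and Tk1, had limma adjusted p of 0.0905, 0.0536 and 0.104. Groups did not overlap for 6 of the 41 genes, Orc6, Cdc6, Mcm4, Gins2, Rrm1 and Rrm2, each lower in the MSTN+/- libraries, where 6.86% of all genes tested were separated in that direction. The sum of the pluripotency markers was highest, and that of the fibroblast markers lowest, in wild-type replicates 2 and 3. Single markers held to this for 6 of the 8 pluripotency genes, without Pou5f1 and Sox2, and for 8 of the 9 fibroblast genes, since Dcn was at 24.3 FPKM in wild-type replicate 1 and 33.0 FPKM in wild-type replicate 2. The part of either list in the replication genes was not tested.

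Calls were also counted in every other fit. With each of MSTN+/- replicates 1 to 7 left out in turn, 20, 24, 20, 24, 20, 21 and 22 of the 41 genes were lower, beside backgrounds of 9.91%, 10.4%, 10.4%, 12.1%, 9.99%, 9.94% and 10.1%. None of the 41 was higher in these fits, where 29.3%, 28.8%, 28.8%, 29.9%, 29.4%, 28.5% and 29.3% of all genes were. The genes lost in 1 or more of them were Mcm5, Mcm6, Rfc2, Pold1, Lig1 and Rrm1. A pseudocount of 0.1 and robust empirical Bayes each gave 26 lower genes (background 12.3% and 12.7%), library weights 38 (24%), no low-value filter 22 (8.6%) and a mean of at least 5 FPKM 27 (16.6%). The higher direction had 0 of the 41 in each, beside 32%, 31.6%, 34.6%, 22.4% and 31.7% of all genes. Without wild-type replicates 1, 2 and 3 in turn it also had 0, beside 42.2%, 25.2% and 24.8%.

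**Figure D2:**
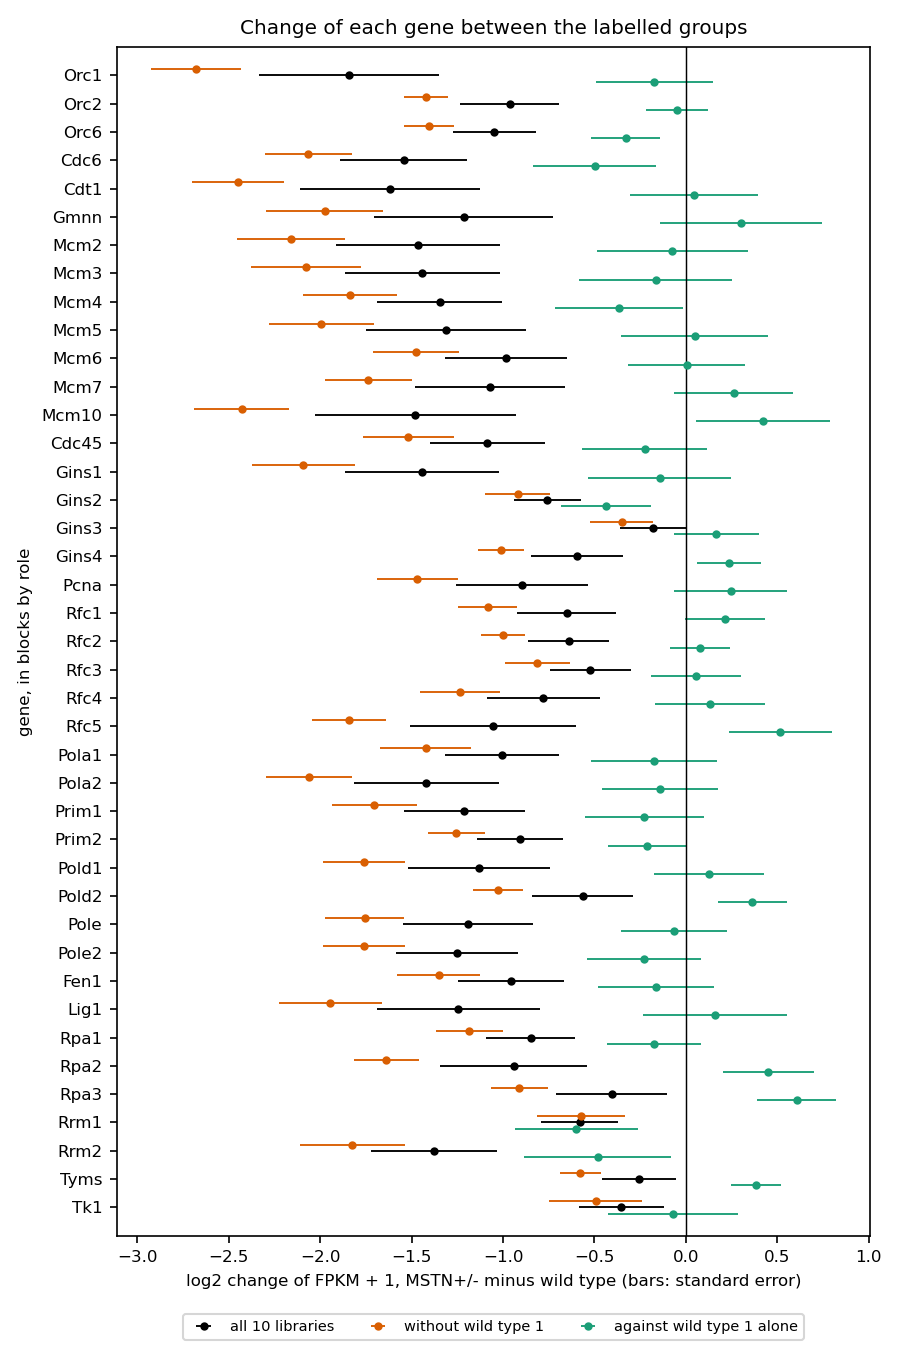
Points are limma log2 changes of FPKM + 1, MSTN+/- minus wild type, for the 41 genes, with bars of 1 standard error, for all 10 libraries (black), without wild-type replicate 1 (orange) and against wild-type replicate 1 alone (green). The black and orange points lie left of 0 for every gene, and 20 of the green points lie right of 0.

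Set against the MSTN+/- mean library by library, all 41 genes were above it in wild-type replicates 2 and 3, by a median of 2.82-fold and 3.26-fold, while all genes tested had medians of 0.88-fold and 0.87-fold. At least 2-fold was reached by 33 and 34 of the 41 genes, against 15% and 16.3% of all genes tested. In both libraries every one of the 41 also lay above the highest MSTN+/- library, as did 31.7% of all genes tested. In wild-type replicate 1 the median was 1.01-fold, with 21 genes above and 20 below the MSTN+/- mean. All genes tested had a median of 0.79-fold there, and 31.4% of them were above the MSTN+/- mean. Within the MSTN+/- range were 33 of the 41 genes and 30.2% of all genes tested. The split depended on scaling, with 34 above and 7 below for the median of ratios, 29 and 12 for quantiles and 27 and 14 for TPM, where 49.9%, 52.4% and 41.6% of all genes tested were above. In wild-type replicates 2 and 3, 41 of 41 were above under each of these.

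**Figure D3:**
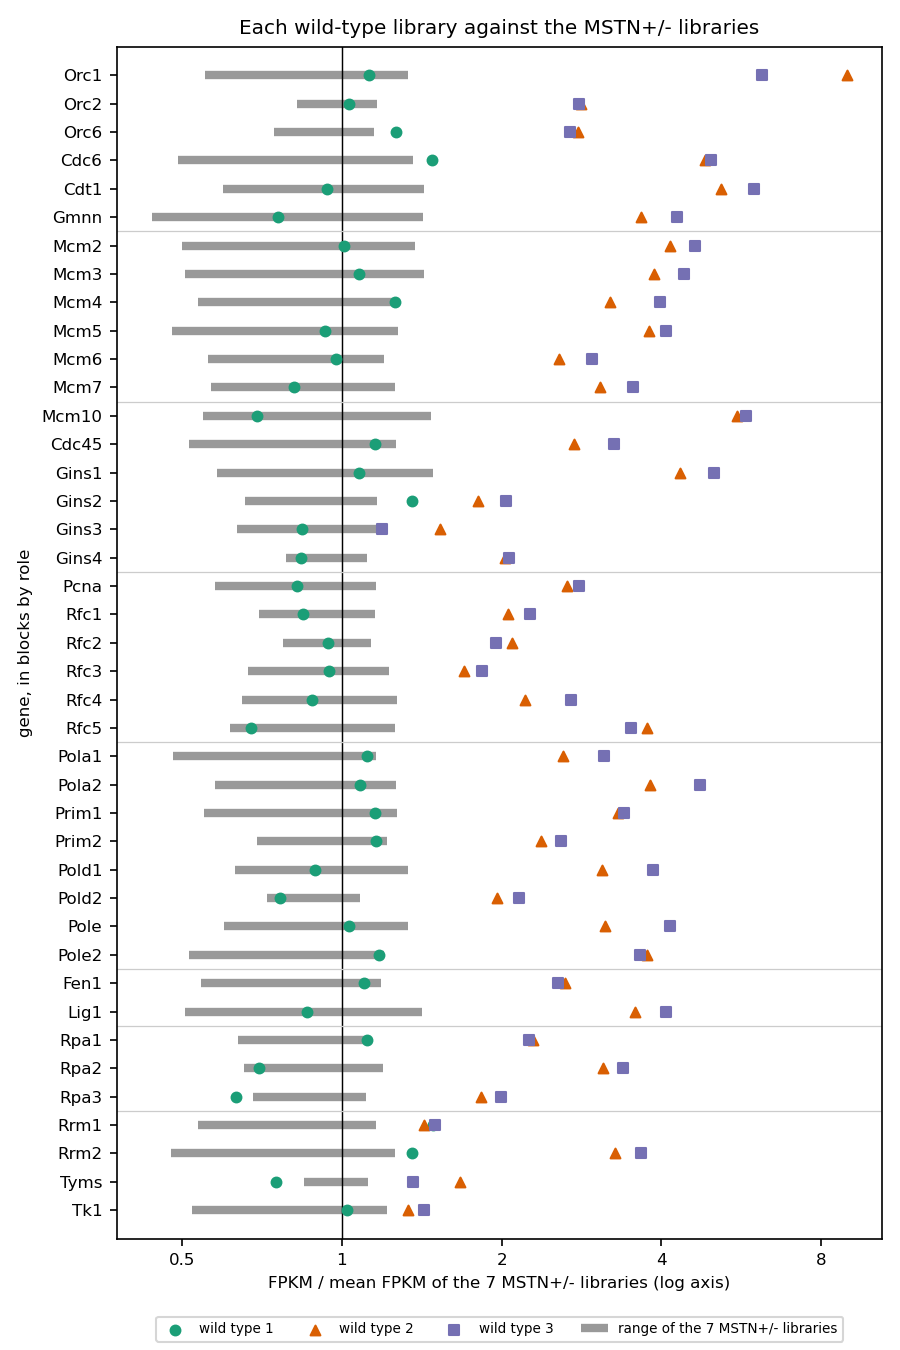
The ratio of a gene's FPKM to its mean over the 7 MSTN+/- libraries (log axis) is given for wild-type replicates 1 (circles), 2 (triangles) and 3 (squares), with grey bars for the range of the MSTN+/- libraries. Triangles and squares lie right of their own gene's grey bar, up to 8.96-fold for Orc1, and 33 of the 41 circles lie inside the bars.

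Origin recognition and licensing genes held the largest ratios. In limma, 5 of the 6 fell in the MSTN+/- libraries, where 12.8% of all genes tested did. The same 12.8% stands beside the counts of the other role groups in the fit of all libraries. Orc1, the regulated ATPase subunit of the origin recognition complex, had 2.44 FPKM in the lowest, 4.11 in the median and 5.87 in the highest MSTN+/- library, and 4.96, 39.5 and 27.3 FPKM in wild-type replicates 1, 2 and 3. Wild-type replicate 1 was within the MSTN+/- range and the other wild-type libraries were far above it, so the groups overlapped. The log2 change was -1.84 ± 0.49 (SE, limma adjusted p = 0.0127), the largest of the 41 in that fit, and it was lost without wild-type replicate 2 (limma adjusted p = 0.0711), without wild-type replicate 3 (0.0662) and when set against wild-type replicate 1 alone (0.686). Orc2, a core subunit of the same complex, differed less, at 9.83 to 14.0 FPKM over the MSTN+/- libraries against 12.3, 33.7 and 33.4 FPKM in the 3 wild-type replicates in order.

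Cdt1, which brings MCM to the origin and is destroyed in S phase, had 9.66, 15.7 and 23.1 FPKM in the lowest, median and highest MSTN+/- library, and 15.1, 84.0 and 96.6 FPKM in wild-type replicates 1, 2 and 3. Its log2 change was -1.62 ± 0.49 (SE, limma adjusted p = 0.0232), with overlapping groups. Gmnn encodes geminin, the inhibitor of CDT1. It was also highest in wild-type replicates 2 and 3, at 6.10 to 19.8 FPKM against 10.6, 50.9 and 59.5 FPKM, but missed the threshold (log2 change -1.22, limma adjusted p = 0.0649). Cdc6, the other MCM loader, was the lowest gene of this role group in 8 libraries, at 1.86 to 5.16 FPKM against 5.59, 18.3 and 18.8 FPKM. It was 1 of the few genes for which wild-type replicate 1 also exceeded every MSTN+/- library (limma adjusted p = 0.00553). Orc6, at 11.6 to 17.9 FPKM against 19.6, 43.2 and 41.8 FPKM, also lay below all 3 wild-type libraries (limma adjusted p = 0.00477).

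Of the 6 subunits of the MCM helicase, 5 fell in limma and Mcm7 did not pass the threshold. Mcm2, a common histological marker of cycling cells, had 18.7, 36.8 and 51.6 FPKM in the lowest, median and highest MSTN+/- library, and 38.0, 156 and 173 FPKM in wild-type replicates 1, 2 and 3. Among the 7, replicate 7 was lowest and replicate 4 highest, and wild-type replicate 1 lay near the middle of that range. Its log2 change was -1.46 ± 0.45 (SE, limma adjusted p = 0.0236), -2.16 without wild-type replicate 1 and -0.07 against wild-type replicate 1 alone. Mcm7, the most abundant subunit in all 10 libraries, had 35.2, 64.9 and 78.1 FPKM in the lowest, median and highest MSTN+/- library, and 50.4, 190.4 and 219 FPKM in the 3 wild-type replicates in order (log2 change -1.07 ± 0.41 SE, limma adjusted p = 0.0552). It was called without wild-type replicate 1 (8.632e-05).

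The MCM subunits, which form a ring, stayed close to one another in level. The highest was 1.74 to 2.40 times the lowest in FPKM, the narrowest span of any role group with more than 2 genes in wild-type replicates 1, 2 and 3. Mcm4 was lowest in 8 libraries and Mcm5 in 2. In wild-type replicate 1 Mcm4, at 35.7 FPKM, was just above its MSTN+/- range of 15.2 to 35.4 FPKM. The other 5 subunits there were within the MSTN+/- range.

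Of the 6 genes that activate the helicase, 3 fell. Mcm10, which is needed for origin firing, had 5.09, 8.71 and 13.7 FPKM in the lowest, median and highest MSTN+/- library and 6.43, 51.6 and 53.8 FPKM in the 3 wild-type replicates in order. Its change of -1.48 ± 0.55 (log2, SE) was just short of the threshold (limma adjusted p = 0.0509), and was called without wild-type replicate 1 (1.742e-05). Gins4, usually the most abundant of this role group, had 18.1, 24.5 and 25.7 FPKM in the lowest, median and highest MSTN+/- library and 19.3, 46.8 and 47.5 FPKM in the 3 wild-type replicates in order (log2 change -0.60 ± 0.25 SE, limma adjusted p = 0.0752). Cdc45, Gins1 and Gins2 fell (limma adjusted p = 0.0185, 0.0193 and 0.00774).

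The GINS subunits, which form a complex of equal parts, differed in pattern. Gins1 was 4.34-fold and 5.03-fold above the MSTN+/- mean in wild-type replicates 2 and 3, and Gins3 was 1.53-fold and 1.19-fold above it. Gins3 was the lowest gene of the role group in 9 libraries, at 1.89 to 3.51 FPKM over the MSTN+/- libraries against 2.51, 4.56 and 3.54 FPKM in the 3 wild-type replicates in order. It did not pass the threshold (log2 change -0.18 ± 0.18 SE, limma adjusted p = 0.435).

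**Figure D4:**
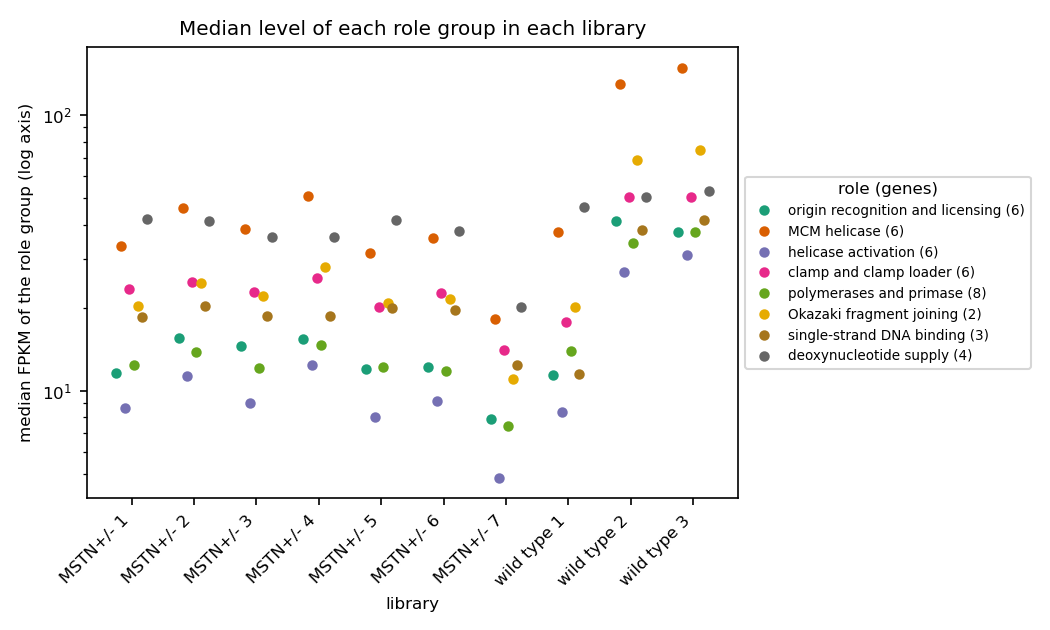
Each point is the median FPKM (log axis) of a role group in 1 library, for the 8 role groups, with the number of genes in brackets. In 7 of the groups the points of wild-type replicates 2 and 3 lie far above the rest, and the 4 genes of deoxynucleotide supply, at 50.2 and 53.1 FPKM, lie close to the 46.3 FPKM of wild-type replicate 1.

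For the sliding clamp and its loader, the RFC complex, 1 of 6 genes fell, Rfc2 (limma adjusted p = 0.0387), beside 12.8% of all genes tested. All 6 were called lower once wild-type replicate 1 was left out, where 31.9% of all genes tested were. Pcna had 65.1, 120 and 131 FPKM in the lowest, median and highest MSTN+/- library, and 93.2, 300.4 and 317 FPKM in wild-type replicates 1, 2 and 3. It was the most abundant of the 41 genes in every library. Its log2 change of -0.90 ± 0.36 (SE) did not pass the threshold (limma adjusted p = 0.0652), with -1.47 without wild-type replicate 1 and 0.25 against wild-type replicate 1 alone. Rfc5 had the largest change of this role group. It was at 14.4, 24.5 and 29.4 FPKM in the lowest, median and highest MSTN+/- library and 15.7, 87.7 and 81.7 FPKM in the 3 wild-type replicates in order, so wild-type replicate 1 was near the low end of the MSTN+/- range (log2 change -1.06 ± 0.45 SE, limma adjusted p = 0.0809). The other loader subunits Rfc1, Rfc2, Rfc3 and Rfc4 were 1.70-fold to 2.70-fold above the MSTN+/- mean in wild-type replicates 2 and 3.

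Of the 8 polymerase and primase genes, 7 fell. Pola2, the regulatory subunit of DNA polymerase alpha, had 11.0, 19.7 and 24.3 FPKM in the lowest, median and highest MSTN+/- library and 20.7, 72.9 and 90.7 FPKM in the 3 wild-type replicates in order. Its log2 change was -1.42 ± 0.40 (SE, limma adjusted p = 0.0156), beside -0.14 with wild-type replicate 1 as the lone control. The catalytic subunits had smaller fitted changes. Pola1 had a log2 change of -1.01, Pold1 of polymerase delta -1.13 and Pole of polymerase epsilon -1.19 (limma adjusted p = 0.0244, 0.0367 and 0.0210). The primase genes Prim1 and Prim2, which make the RNA primers, changed by -1.21 and -0.91 (0.0143 and 0.0107), and Pole2 by -1.25 (0.0129).

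Pold2, an accessory subunit of polymerase delta, was the exception. It had 26.2, 37.6 and 39.2 FPKM in the lowest, median and highest MSTN+/- library and 27.7, 70.9 and 77.9 FPKM in the 3 wild-type replicates in order (log2 change -0.56 ± 0.28 SE, limma adjusted p = 0.120). Without wild-type replicate 1 it was called, at -1.03 (limma adjusted p = 7.720e-05).

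Both genes that finish Okazaki fragments fell. Lig1, the ligase that seals them, had 13.6, 26.6 and 38.1 FPKM in the lowest, median and highest MSTN+/- library and 23.1, 95.9 and 110 FPKM in wild-type replicates 1, 2 and 3 (log2 change -1.24 ± 0.44 SE, limma adjusted p = 0.0434). Fen1, the flap nuclease, had 8.38 to 18.3 FPKM against 17.0, 40.7 and 39.4 FPKM (log2 change -0.96, limma adjusted p = 0.0228). The call of Lig1 was lost without any 1 of MSTN+/- replicates 1, 2, 3, 5, 6 and 7.

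Among the 3 subunits of RPA, which coats single-stranded DNA, Rpa1 fell. It had 28.7, 47.6 and 51.2 FPKM in the lowest, median and highest MSTN+/- library and 50.3, 103 and 102 FPKM in the 3 wild-type replicates in order (log2 change -0.85 ± 0.24 SE, limma adjusted p = 0.0175). Rpa2 had 8.04, 12.1 and 14.7 FPKM in the lowest, median and highest MSTN+/- library and 8.60, 38.2 and 41.6 FPKM in the 3 wild-type replicates in order (log2 change -0.94 ± 0.40 SE, limma adjusted p = 0.0797). Rpa3 was at 12.4 to 20.3 FPKM against 11.5, 33.5 and 36.4 FPKM (limma adjusted p = 0.292). Against wild-type replicate 1 alone Rpa3 turned, with a log2 change of 0.61 (limma adjusted p = 0.0473), and it was 1 of the 2 genes called higher there.

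Of the 4 genes of deoxynucleotide supply, Rrm1 and Rrm2 fell. Rrm2, the S-phase subunit of ribonucleotide reductase, had 25.2, 55.0 and 66.6 FPKM in the lowest, median and highest MSTN+/- library and 71.6, 173 and 194 FPKM in wild-type replicates 1, 2 and 3. All 3 wild-type values were above all 7 MSTN+/- values (log2 change -1.38 ± 0.34 SE, limma adjusted p = 0.00937). Rrm1, the large subunit of the same enzyme, was nearly level among the wild-type libraries, at 59.3, 56.9 and 59.6 FPKM, and had 21.3, 40.96 and 46.2 FPKM in the lowest, median and highest MSTN+/- library (log2 change -0.58 ± 0.21 SE, limma adjusted p = 0.0468). The call of Rrm1 was lost when any library other than MSTN+/- replicate 7 was left out, as without wild-type replicate 1 (limma adjusted p = 0.0536). It was also lost with library weights and without the low-value filter. Without MSTN+/- replicate 7 the limma adjusted p was 0.00412.

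Tk1, the thymidine kinase of dividing cells, had 17.1, 35.0 and 39.8 FPKM in the lowest, median and highest MSTN+/- library and 33.4, 43.5 and 46.7 FPKM in the 3 wild-type replicates in order. It did not pass the threshold in the fit of all libraries (log2 change -0.35 ± 0.23 SE, limma adjusted p = 0.238) or in any alternative (0.0668 to 0.891). Tyms, the thymidylate synthase, was the steadiest of the 41 among the MSTN+/- libraries, at 18.9 to 24.9 FPKM with a coefficient of variation of 9.01%. It was at 16.7, 37.2 and 30.2 FPKM in the 3 wild-type replicates in order (log2 change -0.26, limma adjusted p = 0.316), but with wild-type replicate 1 as the lone control it was called higher (0.38, limma adjusted p = 0.0474).

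Ratios between genes of a role group do not change when a library is multiplied by 1 factor, which quantile scaling does not do. Of such ratios 13 were computed, chosen after the values were seen and given without a test. The FPKM ratio of Rrm2 to Rrm1 was 1.32 ± 0.15 (SD, n = 7) in the MSTN+/- libraries and 1.21, 3.04 and 3.25 in wild-type replicates 1, 2 and 3. That of Orc1 to Orc2 was 0.36 ± 0.07 (SD, n = 7) and 0.40, 1.17 and 0.82. That of Rfc5 to Rfc3 was 1.16 ± 0.12 (SD, n = 7) and 0.83, 2.58 and 2.22. For these pairs wild-type replicates 2 and 3 exceeded every other library. Mcm7 to Mcm4 was 2.21 ± 0.13 (SD, n = 7) and 1.41, 2.10 and 1.95, with wild-type replicate 1 lowest. Rpa1 to Rpa3 was 2.46 ± 0.16 (SD, n = 7) and 4.36, 3.08 and 2.79, with wild-type replicate 1 highest.

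The other 8 ratios shifted to different degrees. Rrm2 to Tk1 was 1.62 ± 0.25 (SD, n = 7) in the MSTN+/- libraries and 2.15, 3.98 and 4.16 in wild-type replicates 1, 2 and 3. Pola2 to Pola1 was 2.88 ± 0.33 (SD, n = 7) and 2.76, 4.14 and 4.30, and Gins1 to Gins4 was 0.24 ± 0.08 (SD, n = 7) and 0.31, 0.51 and 0.59. In these pairs wild-type replicates 2 and 3 were again the highest. They were highest by less for Pcna to Rfc1, at 5.70 ± 0.58 (SD, n = 7) and 5.59, 7.42 and 7.10, for Prim1 to Prim2, at 1.05 ± 0.15 (SD, n = 7) and 1.06, 1.48 and 1.39, and for Cdt1 to Gmnn, at 1.20 ± 0.20 (SD, n = 7) and 1.43, 1.65 and 1.62. Rpa1 to Rpa2 ran the other way, at 3.68 ± 0.28 (SD, n = 7) and 5.85, 2.70 and 2.44. Pole2 to Pole differed little, at 0.62 to 0.87 in the MSTN+/- libraries and 0.87, 0.92 and 0.67 in the wild-type libraries.

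**Figure D5:**
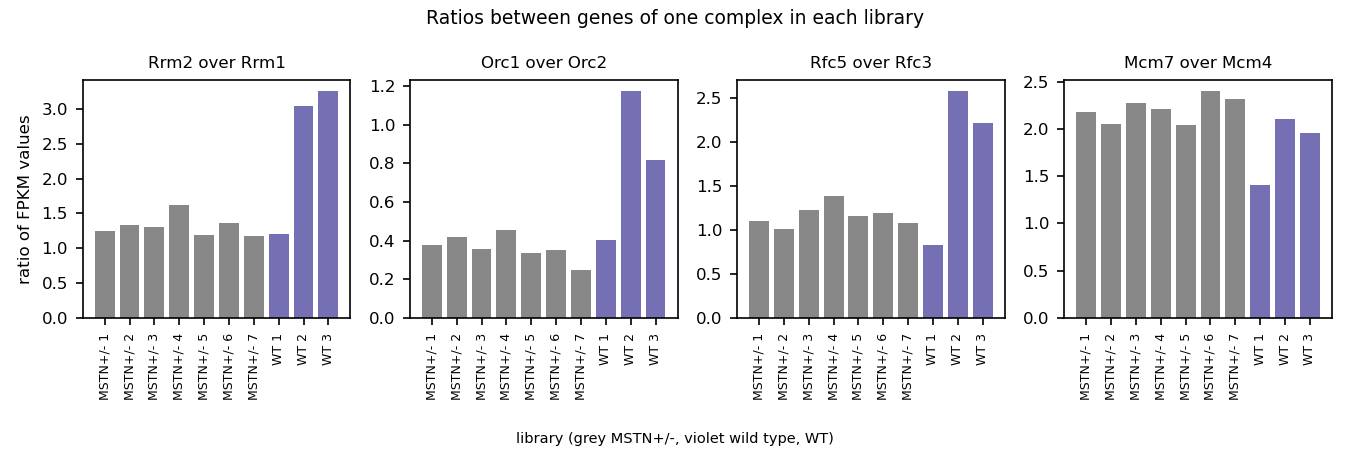
Bars are the ratio of FPKM values of 2 genes of a complex in each library, grey for MSTN+/- and violet for wild type (WT). Rrm2 to Rrm1, Orc1 to Orc2 and Rfc5 to Rfc3 are highest in wild-type replicates 2 and 3, and Mcm7 to Mcm4 is lowest in wild-type replicate 1, at 1.41.

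Within the MSTN+/- libraries replicate 7 was low for all of these genes, and the order of replicates 1 to 6 differed from gene to gene. MSTN+/- replicate 7 was lowest of the 7 for 41 of 41 genes, where 28.8% of all genes tested were lowest there. It stood at 0.40-fold (Gmnn) to 0.83-fold (Tyms) of the mean of replicates 1 to 6, with a median of 0.54-fold over the 41 genes and 0.96-fold over all genes tested. These ratios were below 1 for all 41 genes under median-of-ratios, TPM and quantile scaling as well. MSTN+/- replicate 4 was highest for 25 of the 41 and replicate 2 for 12, where all genes tested had 28.2% and 7.93%. The coefficient of variation of the 41 genes over the 7 libraries ran from 9.01% to 33.2%, with a median of 22.4%, and the median of all genes tested was 13.2%. MSTN+/- replicate 7 also had the highest sum of the fibroblast markers among the 7, at 6036 FPKM, and replicate 4 the lowest, at 3113 FPKM. The sum of the pluripotency markers was highest in replicate 4, at 1529 FPKM, and replicate 7 was next, at 1294 FPKM. That sum rested on Pou5f1 and Sox2, at 848 and 357 FPKM, for which replicate 7 was the highest of the 7. The other 6 markers stood at 0.39-fold to 0.64-fold of the mean of replicates 1 to 6. Replicates 1 and 5 were below replicate 7 for each of these 6, as for Dppa5a at 12.3 and 5.21 FPKM against 34.6 FPKM. Their sums of the 41 replication genes were 2153 and 2165 per 1000000 FPKM, against 1263 in replicate 7. The part of these markers in the replication genes was not tested. Without MSTN+/- replicate 7, 22 of the 41 genes were lower, all among the 26, beside a background of 10.1%, with a median log2 change of -0.94.

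Genes around the replication machinery were read from 8 lists of 88 genes, of which 87 were tested and Pclaf had no row under that symbol. In limma, 45 fell in the MSTN+/- libraries and 10 rose, where 12.8% and 31.8% of all genes tested did. Firing kinases and firing factors had 10 of 12 lower and proliferation markers outside replication 6 of 8. Chromatin assembly genes had 5 of 6 lower, and fork protection and cohesion factors 6 of 10. Other origin genes had 1 of 7 lower. No gene rose in these 5 lists. The lists of other polymerase subunits, other nucleotide supply genes and E2F and RB regulators were mixed, with 4 lower and 3 higher of 11, 6 lower and 3 higher of 16, and 7 lower and 4 higher of 17. Against wild-type replicate 1 alone 4 of the 87 were lower, Mtbp, Donson, E2f7 and Foxm1, and 13 higher, beside 10.8% and 33.7% of all genes. Without wild-type replicate 1, 70 were lower and 10 higher, beside 31.9% and 42.2%.

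The related genes with the smallest p in the lower direction were Mtbp, E2f7 and E2f8. Mtbp, a partner of the firing factor Ticrr, had 4.88, 5.93 and 6.78 FPKM in the lowest, median and highest MSTN+/- library and 10.2, 11.9 and 15.1 FPKM in wild-type replicates 1, 2 and 3, without overlap (log2 change -0.95 ± 0.14 SE, limma adjusted p = 4.911e-04). E2f7, a repressor of the E2F family, had 1.29, 3.50 and 3.67 FPKM in the lowest, median and highest MSTN+/- library against 7.59, 8.57 and 10.3 FPKM (log2 change -1.27 ± 0.22 SE, limma adjusted p = 0.00136). E2f8, its close relative, had 2.34, 5.91 and 7.28 FPKM in the lowest, median and highest MSTN+/- library against 10.4, 20.5 and 27.5 FPKM (log2 change -1.59 ± 0.32 SE, limma adjusted p = 0.00284). The call of E2f8 was lost against wild-type replicate 1 alone (0.104), and those of Mtbp and E2f7 were not.

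Those with the smallest p in the higher direction were Rb1, Pold4 and Tk2. Rb1, the retinoblastoma protein gene, which holds E2F factors in check, had 18.3, 20.3 and 25.8 FPKM in the lowest, median and highest MSTN+/- library and 5.44, 5.56 and 4.0 FPKM in wild-type replicates 1, 2 and 3 (log2 change 1.86 ± 0.14 SE, limma adjusted p = 6.007e-06). Here the 3 wild-type libraries lay close together and apart from the MSTN+/- libraries, and the change against wild-type replicate 1 alone was 1.75 (limma adjusted p = 9.678e-05). Pold4, the smallest subunit of polymerase delta, had 34.6, 40.5 and 59.0 FPKM in the lowest, median and highest MSTN+/- library and 15.6, 8.07 and 8.78 FPKM in the 3 wild-type replicates in order (log2 change 1.93 ± 0.21 SE, limma adjusted p = 7.341e-05). MSTN+/- replicate 7 was highest for this gene and lowest for the other subunits Pold1 and Pold2. Tk2, the mitochondrial thymidine kinase, had 8.79, 9.61 and 11.9 FPKM in the lowest, median and highest MSTN+/- library against 4.42, 4.52 and 4.70 FPKM (log2 change 0.95 ± 0.11 SE, limma adjusted p = 9.257e-05).

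Mki67, the Ki-67 proliferation antigen, did not pass the threshold although its groups did not overlap. It had 13.7, 32.2 and 33.8 FPKM in the lowest, median and highest MSTN+/- library and 44.7, 39.0 and 48.1 FPKM in wild-type replicates 1, 2 and 3 (log2 change -0.64 ± 0.25 SE, limma adjusted p = 0.0580). The lowest value was again MSTN+/- replicate 7, without which the limma adjusted p was 0.00877. Wild-type replicate 1 was between the other wild-type libraries for Mki67, whereas for Mcm2 it was at 38.0 FPKM beside 156 and 173 FPKM. Mki67 was the exception in its list of 8 proliferation markers. Bub1, Ccnb1, Cdk1, Aurkb, Plk1, Birc5 and Cdc20 each had their lowest wild-type value in replicate 1. Bub1 had 12.2 FPKM there beside 37.6 and 53.1 FPKM, and Plk1 62.3 FPKM beside 91.7 and 108 FPKM. Among the replication genes, Rrm1 resembled Mki67, with 59.3 FPKM beside 56.9 and 59.6 FPKM.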

How the data were processed

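The authors deposited 1 table of FPKM values per gene and library, per the file headers, with 2 decimals. Aligner, counter, strandedness and build remain not given in the sources used here. Columns were tied to libraries by title and groups to the genotype label, and replicate numbers only name libraries. Count models need whole reads, which FPKM are not, and none was used; depth is unknown. FPKM totals were 402716 to 464418 per library. Steps of single fragments in low genes put relative depth at 1 to 1.20, from a search limited to small ratios. These are ratios between libraries and do not give the depth itself, so the precision of genes at a few FPKM is not known.

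In R 4.3.3, limma 3.58.1 with an intensity trend was run on log2(FPKM + 1) of 14047 genes that reached 1 FPKM in 3 or more libraries, over all 10 libraries without covariates (8 residual degrees of freedom). A fold change on this scale understates low genes. Adjustment for multiple tests was by Benjamini-Hochberg. The procedure was tested on simulated data. Members and lists were chosen with earlier results of these data known. The lowest, median and highest MSTN+/- values and each wild-type value are given for genes picked by a rule. In each of 8 role groups these were the gene with the largest absolute log2 change and that with the highest mean FPKM. Mcm2, Pcna, Rrm2 and Tk1 were added, with the related genes of the 3 smallest p in each direction and Mki67. Other genes are named as examples chosen after their values were seen. Alternatives were 3 scalings, a pseudocount of 0.1, library weights, robust empirical Bayes, no filter or a mean of 5 FPKM or more, leaving out each library, and wild-type replicate 1 alone. Of the marker lists, endothelial genes summed to 2.97 to 28.8 FPKM and leukocyte genes to 3.94 to 14.1 FPKM per library. Figures were drawn with matplotlib 3.10.9.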

Additional observations from a re-analysis of the deposited data

Results flagged for a closer look

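MSTN+/- replicate 7 lay far from the other 6 MSTN+/- libraries for 16 of the 41 replication genes, by a gap to its nearest neighbour of more than 0.568 of the whole range, and no other MSTN+/- library did so for any of them. Chance gives such a gap in about 1 of 20 groups, genes that vary together repeat it, and 3.49% of all genes tested had it at the low end in this library. The values in MSTN+/- replicate 7 were 15.2 FPKM for Mcm4, 14.9 FPKM for Mcm5 and 27.1 FPKM for Mcm6, where the other 6 libraries started at 27.3, 29.4 and 48.7 FPKM. Pcna was at 65.1 FPKM and Rfc2 at 22.2 FPKM, below 110 and 28.3 FPKM in the others. Pola1 was at 3.24 FPKM, Prim2 at 8.08 FPKM, Pold2 at 26.2 FPKM and Pole2 at 3.11 FPKM, below 6.29, 11.6, 36.3 and 5.82 FPKM. Fen1 was at 8.38 FPKM, Rpa1 at 28.7 FPKM, Rpa2 at 8.04 FPKM and Rpa3 at 12.4 FPKM, below 15.3, 43.9, 11.9 and 18.4 FPKM. Rrm1 was at 21.3 FPKM, Rrm2 at 25.2 FPKM and Tk1 at 17.1 FPKM, below 39.8, 52.0 and 31.1 FPKM. The sum of the 41 genes per 1000000 FPKM was 1263 there and at least 2153 in the other 6.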

How the results depend on the processing

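The fit against wild-type replicate 1 alone was run only on the values as deposited, where all genes tested had a median log2 change of 0.26. As deposited, 21 of the 41 genes were above the MSTN+/- mean in that library. With the median of ratios, quantiles and TPM, 34, 29 and 27 were. Which genes would turn in a lone-control fit under those scalings was not tested. All 41 genes kept their direction in limma under every alternative except the lone-control fit, where 20 turned to higher in MSTN+/-, some by little. Their log2 changes there were 0.046 for Cdt1, 0.30 for Gmnn, 0.048 for Mcm5, 0.0045 for Mcm6, 0.26 for Mcm7, 0.42 for Mcm10, 0.17 for Gins3, 0.24 for Gins4, 0.25 for Pcna, 0.22 for Rfc1, 0.0776 for Rfc2, 0.0579 for Rfc3, 0.13 for Rfc4, 0.52 for Rfc5, 0.13 for Pold1, 0.36 for Pold2, 0.16 for Lig1, 0.45 for Rpa2, 0.61 for Rpa3 and 0.38 for Tyms. In that fit 0 of the 41 genes were lower, 2 were higher and their median change was -0.0477, and 4 related genes were lower. Leaving out 1 library gave 3 to 38 lower and 0 to 0 higher genes of the 41, with medians of -1.52 to -0.74. Of the 87 related genes, 16 to 70 were lower and 7 to 10 higher. Over all genes tested, 5.7% to 31.9% were lower and 24.8% to 42.2% higher in those fits. The lowest and highest counts came from leaving out wild-type replicate 3 or 2 and wild-type replicate 1. Without a low-value filter 22 of the 41 genes were lower (background 8.6%), and with library weights 38 (24%). A pseudocount of 0.1 and robust empirical Bayes each gave 26 (12.3% and 12.7%). A mean of at least 5 FPKM, which leaves 40 tested, gave 27 (16.6%). No paired analysis was possible because the labels carry no replicate numbers. Depth is unknown, so no limit for low genes can be given.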

Other observations

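Some related genes, picked after their values were seen, were far higher in wild-type replicates 2 and 3. Mybl2, a transcription factor of dividing cells, had 13.6 to 53.2 FPKM over the MSTN+/- libraries against 11.5, 268 and 251 FPKM in wild-type replicates 1, 2 and 3. Dna2, a nuclease of Okazaki fragment processing, had 1.26 to 3.81 FPKM against 2.32, 17.5 and 20.2 FPKM. The histone chaperone gene Nasp had 17.9 to 59.1 FPKM against 28.7, 209 and 247 FPKM, and Shmt1, which feeds folate to thymidylate synthesis, 6.88 to 16.2 FPKM against 9.58, 63.0 and 65.2 FPKM.

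Other genes named for replication were nearly level or ran the opposite way. Pole3, a histone-fold subunit of polymerase epsilon, had 16.8 to 27.5 FPKM against 22.6, 22.4 and 23.1 FPKM, and Chtf8, of an alternative clamp loader, 47.2 to 57.3 FPKM against 52.8, 49.5 and 50.3 FPKM. Top2b, the topoisomerase II form that does not follow the cell cycle, had 26.8 to 36.1 FPKM against 36.7, 10.7 and 10.1 FPKM, whereas Top2a, the form of dividing cells, had 22.7 to 68.2 FPKM against 60.9, 162 and 169 FPKM. Samhd1, which degrades deoxynucleotides, had 29.7 to 41 FPKM against 25.6, 18.6 and 17.0 FPKM.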
